A study of Mus musculus with 4 samples.

Results

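The 9 genes described here encode digestive protease zymogens of the exocrine pancreas and the trypsin inhibitor that is secreted with them, and they were read in RNA of whole mouse spleen. They are the trypsinogen genes Try5, Try4 and Prss1, the chymotrypsinogen gene Ctrb1, the elastase genes Cela3a, Cela3b and Cela2a, the carboxypeptidase gene Cpa1, and the inhibitor gene Spink1. All 9 were found by RefSeq accession among the 20284 genes matched on the array, through 11 probes of 1 spot each. Cela3a and Prss1 had 2 probes and the other 7 genes had 1. The genes had been picked because their signal differed between pools of these same data, so their differences are given as a description, with no test.

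The offspring were 5-day-old ICR mice, an outbred stock. The CB-NP pools, 1 of males and 1 of females, came from dams that had received carbon black nanoparticles, fine particles of almost pure carbon, into the nose at 95 microg/kg on each of gestational days 5 and 9. The control pools, again 1 of each sex, came from dams given distilled water at 1 mL/kg on the same days. RNA was pooled within each group before labelling, so each of the 4 groups is 1 array, no spread between animals can be seen, and how many animals or litters entered a pool is not given in the sources used here. Of the 59305 non-control spots, between 57.29% and 59.01% were well above background on each array, and none was saturated. Precision is limited by having 4 arrays, all on 1 slide, so array position and group cannot be told apart. The label of spleen was checked on its defining markers. All 5 spleen stroma genes and all 11 blood cell genes with a probe were well above background in every pool, among them Tlx1, the homeobox gene that the spleen needs to form, with an intensity of 1300 units in male CB-NP, 1350 in male control, 1210 in female CB-NP and 1550 in female control.

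Pancreatic acinar cells make these proteases as inactive zymogens, pack them in granules and release them into the gut. There enteropeptidase cuts trypsinogen to trypsin, and trypsin activates the chymotrypsinogen, proelastase and procarboxypeptidase that arrive with it. Spink1 protein blocks trypsin that becomes active too early. In acinar cells many of these genes are switched on by PTF1, a complex that binds an E-box together with a nearby TC box, and the exocrine pancreas is their main site of expression.

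Promoter sequence was available for 7 of the 9 genes, from RefSeq on the build GRCm38.p6, as the window from 250 bases before to 50 bases after the annotated gene start. The 250 bases before the start are printed 5′ to 3′ for 5 members, because they show what related members share and where the letters of the PTF1 motifs lie. Capitals mark the E-box CANNTG, the TC box TTTCCC on either strand (GGGAAA when it lies on the other strand) and the TATA box TATAAA.
Cela3a (chr4:137409792-137410041, minus strand): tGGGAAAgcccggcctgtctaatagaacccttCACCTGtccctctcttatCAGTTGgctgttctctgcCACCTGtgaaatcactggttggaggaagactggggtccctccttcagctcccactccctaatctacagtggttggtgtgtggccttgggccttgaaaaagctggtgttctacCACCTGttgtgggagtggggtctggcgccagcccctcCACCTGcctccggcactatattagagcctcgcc
Cela3b (chr4:137430521-137430770, minus strand): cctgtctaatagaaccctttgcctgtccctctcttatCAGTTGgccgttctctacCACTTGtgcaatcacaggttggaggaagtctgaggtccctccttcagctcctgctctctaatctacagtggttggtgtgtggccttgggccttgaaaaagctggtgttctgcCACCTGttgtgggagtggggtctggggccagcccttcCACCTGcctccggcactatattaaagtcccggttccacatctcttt
Prss1 (chr6:41458680-41458929, plus strand): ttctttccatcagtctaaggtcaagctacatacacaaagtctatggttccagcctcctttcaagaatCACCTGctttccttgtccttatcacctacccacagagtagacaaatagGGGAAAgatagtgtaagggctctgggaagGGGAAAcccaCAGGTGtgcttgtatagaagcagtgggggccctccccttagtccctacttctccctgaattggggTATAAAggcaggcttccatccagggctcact
Try4 (chr6:41302022-41302271, plus strand): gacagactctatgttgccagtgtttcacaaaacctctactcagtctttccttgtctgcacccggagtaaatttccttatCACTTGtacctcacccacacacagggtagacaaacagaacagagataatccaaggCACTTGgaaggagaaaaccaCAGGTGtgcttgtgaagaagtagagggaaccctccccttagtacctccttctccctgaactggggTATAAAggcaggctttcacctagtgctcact
Ctrb1 (chr8:111691011-111691260, minus strand): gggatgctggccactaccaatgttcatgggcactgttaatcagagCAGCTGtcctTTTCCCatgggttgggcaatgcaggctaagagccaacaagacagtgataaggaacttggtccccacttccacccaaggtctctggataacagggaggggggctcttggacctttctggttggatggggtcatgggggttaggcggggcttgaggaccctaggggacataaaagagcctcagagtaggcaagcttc

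The Cela3a and Cela3b windows were alike in 234 of 287 bases (81.5%) at a shift of 13 bases, and these genes lie next to each other on chromosome 4. The Prss1 and Try4 windows matched in 187 of 300 bases (62.3%) with no shift. The other pairs, of 21 compared, shared between 28.4% and 33.7% of bases. Both trypsinogen windows held an E-box from -96 to -91 and a TATA box from -31 to -26, counted from the gene start. In Ctrb1 an E-box from -205 to -200 was followed by a TC box from -195 to -190.

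On both strands, the E-box CANNTG was found in 7 of 7 member windows, beside 72.3% of 32851 promoter windows of the same length. Its form CACCTG, which lies inside the CANNTG matches, was found in 5 of 7 beside 20.2%. TTTCCC was found in 5 of 7 beside 25.2%, and CANNTG together with TTTCCC in 5 of 7 beside 18.0%. TATAAA was found in 2 of 7 beside 13.6%. A match of letters is a description and not a binding site, and the members of a related pair are not independent of each other.

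**Figure D1:**
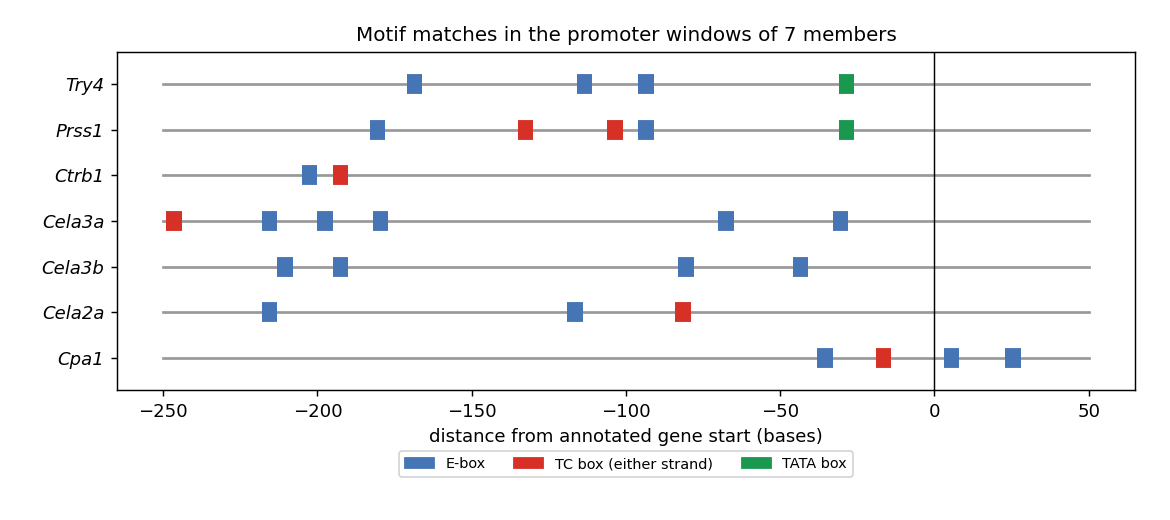
Motif matches along the promoter windows of 7 members, with the distance from the annotated gene start in bases on the x axis and 1 line per gene. Blocks are matches to the E-box, the TC box and the TATA box, and the trypsinogen genes Try4 and Prss1 share the E-box from -96 to -91 and the TATA box from -31 to -26.

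Each of the 9 genes read higher in both control pools than in either CB-NP pool. All 9 were well above background in the control pools. In the CB-NP pools Ctrb1, Cela3a, Cela3b and Cpa1 were well above background and the other 5 genes were not. The values below are processed signals in intensity units, before any scaling between arrays, and the 75th percentile of an array was 340 units in male CB-NP, 335 in male control, 317 in female CB-NP and 392 in female control. Differences and folds are of log2 signals after each array's 75th percentile had been subtracted. The scanner error given with a difference covers the reading of the spots, not the animals. Where just 1 of the arrays compared read a gene well above background, the fold is a lower bound ("at least"), set against the dimmest probe called well above background on the other array or the gene's own reading there, whichever is higher. Probes differ in binding, so levels are compared between pools and not between genes.

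**Figure D2:**
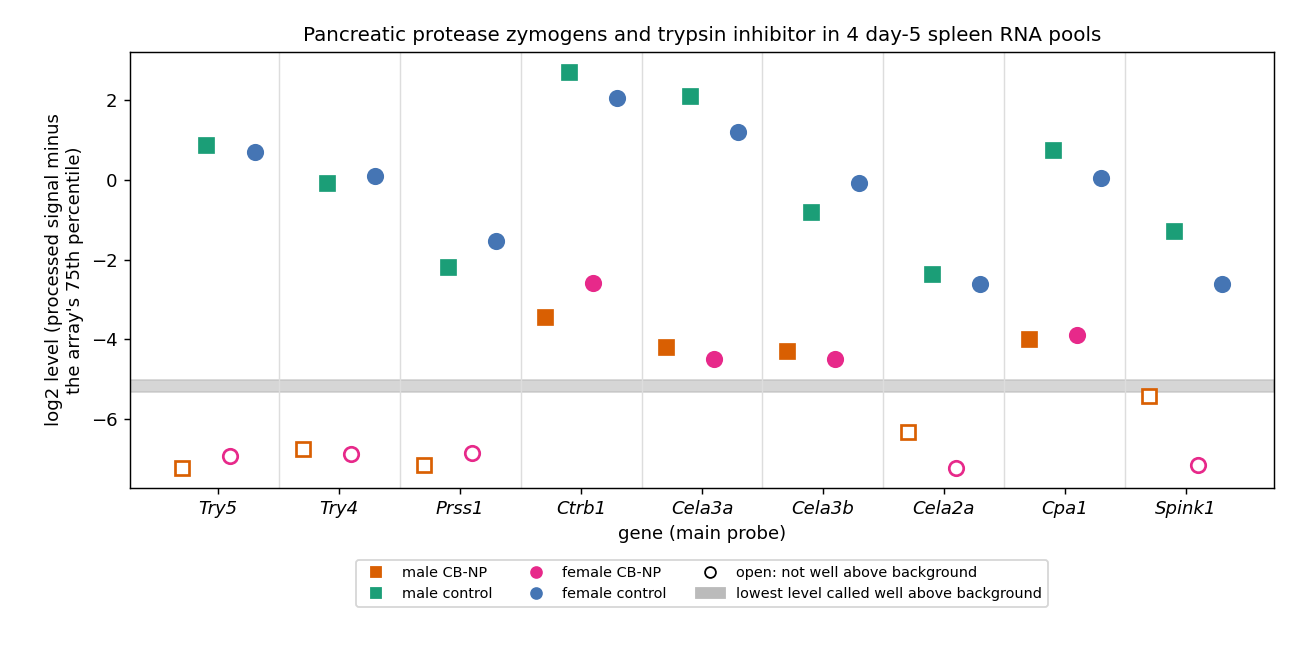
Level of each gene in the 4 pools, as log2 processed signal minus the array's 75th percentile, by its main probe. Squares are male and circles female pools, open symbols are readings not well above background, and the grey band spans the lowest levels called well above background on the 4 arrays. For each gene both control readings lie above both CB-NP readings.

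Trypsinogens are the zymogens on which the activation of the others depends. Try5 read 2.28 units in male CB-NP and 620 in male control, and 2.61 in female CB-NP and 643 in female control. The CB-NP spots of Try5 could not be told from the glass around them: the median pixel was 23 against a local background of 24 in male CB-NP, and 27 against 20 in female CB-NP. Try5 was thus at least 73.4-fold lower in male CB-NP and at least 52.8-fold lower in female CB-NP than in the control of the same sex.

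Try4, the neighbour of Try5 on chromosome 6, read 3.13 units in male CB-NP and 316 in male control, and 2.71 in female CB-NP and 421 in female control. Both CB-NP readings lay under both control readings, and the bounds were at least 37.4-fold lower (males) and at least 34.6-fold lower (females). Prss1, also a trypsinogen gene of chromosome 6, read 2.40 units in male CB-NP and 74.2 in male control, and 2.73 in female CB-NP and 136 in female control. That made it at least 8.79-fold lower in male CB-NP. In female CB-NP the bound was at least 11.2-fold lower. A bound can be no larger than the distance of the control reading from the detection limit. Its other probe read 2.77 units in male CB-NP and 24.6 in male control, and 3.47 in female CB-NP and 49.4 in female control, bounds of at least 2.91-fold (males) and 4.06-fold (females) lower. The trypsinogen genes are close relatives, and how far a probe for 1 of them also binds the RNA of another was not tested.

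Ctrb1, which encodes a precursor of chymotrypsin, stayed above background in every pool. It read 31.5 units in male CB-NP and 2210 in male control, and 52.7 in female CB-NP and 1640 in female control. The log2 difference was -6.15 (scanner error 0.22) in males and -4.65 (0.21) in females, or 71.2-fold and 25.2-fold lower. The female CB-NP level of Ctrb1 was 0.84 above the male CB-NP level on the log2 scale (scanner error 0.23), while the female control level was 0.66 below the male control level (0.20).

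The elastase genes encode zymogens of the chymotrypsin-like elastase family of serine proteases. Cela3a read 18.5 units in male CB-NP and 1460 in male control, and 14.0 in female CB-NP and 899 in female control. Its log2 difference was -6.32 (scanner error 0.26) in males and -5.70 (0.32) in females, 80.1-fold and 51.9-fold lower. By this probe it was the lowest in each sex among the 14186 and 14075 genes well above background on both arrays. That rank leaves out genes with bounds, such as Amy2a5, at most -6.96 in males and -6.69 in females. Nothing is read from the rank, since the genes were picked on this contrast. The CB-NP spots of Cela3a stood close to the glass, with a median pixel of 41.5 against 22 in male CB-NP and 39 against 20 in female CB-NP. The other Cela3a probe read 15.1 units in male CB-NP and 96.6 in male control, and 2.46 in female CB-NP and 205 in female control. That probe was 6.49-fold lower in males and at least 16.8-fold lower in females, so the probes shared the direction and not the size.

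Cela3b read 17.3 units in male CB-NP and 192 in male control, and 14.1 in female CB-NP and 376 in female control. Its log2 difference was -3.49 (0.28) in males and -4.43 (0.35) in females, 11.3-fold and 21.6-fold lower. The difference of Cela3b was thus larger in females. By the main probes Cela3a, Ctrb1 and Cpa1 had the larger difference in males, but the other Cela3a probe had it in females. Cela2a, on chromosome 4 as well, read 4.25 units in male CB-NP and 65.6 in male control, and 2.13 in female CB-NP and 64.4 in female control. The bound was at least 7.77-fold lower for male CB-NP, and at least 5.29-fold lower for female CB-NP.

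Cpa1, the precursor of carboxypeptidase A, which trims residues from the end of a peptide, read 21.5 units in male CB-NP and 563 in male control, and 21.5 in female CB-NP and 405 in female control. Its log2 difference was -4.73 (0.25) in males and -3.93 (0.27) in females, 26.6-fold and 15.2-fold lower.

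Spink1, the trypsin inhibitor, went the same way as the zymogens it is secreted with. It read 7.87 units in male CB-NP and 139 in male control, and 2.23 in female CB-NP and 64.8 in female control. Both CB-NP readings lay under both control readings, with bounds of at least 16.5-fold (males) and 5.32-fold (females) lower.

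**Figure D3:**
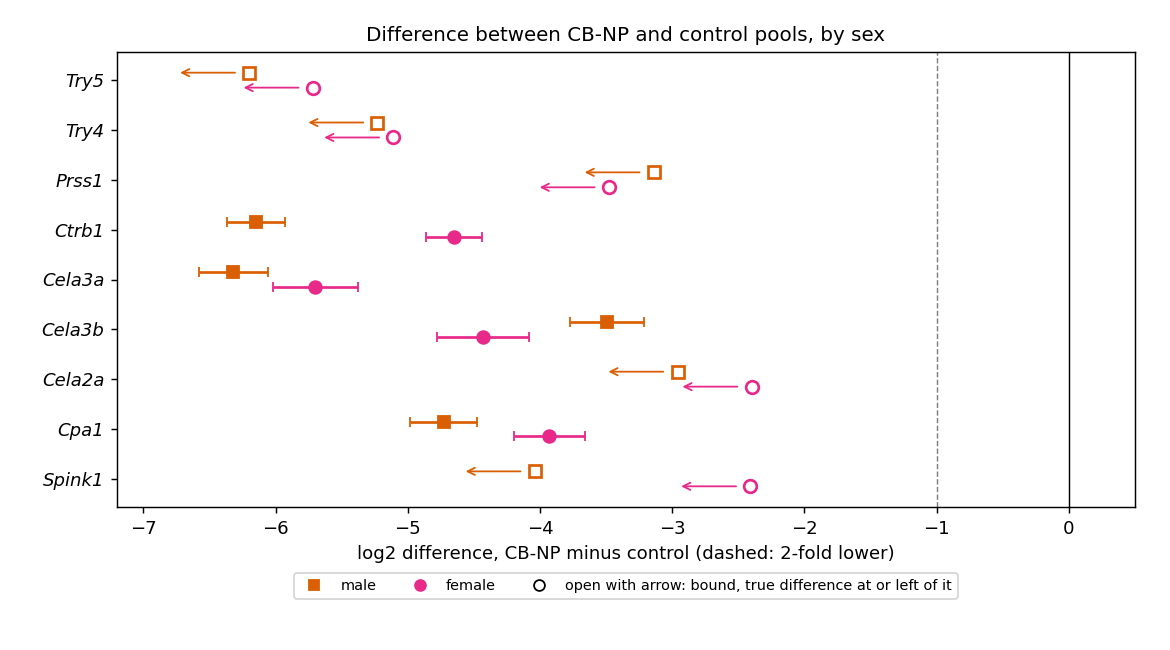
The log2 difference of each gene, CB-NP minus control, in males (squares) and females (circles). Bars on filled symbols are the scanner error, open symbols with arrows are bounds, and the dashed line marks 2-fold lower. Every symbol lies left of -2, from -6.32 for Cela3a in males to -2.40 for Cela2a in females.

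Counted together, 9 of 9 members had a male CB-NP level at least 2-fold below that of male control, where 1.21% of the 14818 genes well above background on at least 1 of these arrays were, bounds included. In the female comparison it was again 9 of 9, where 0.789% of 14711 genes were. Restricted to genes well above background on both arrays, the 4 measured members passed 2-fold in each sex, as did 0.508% of such genes in the male and 0.433% in the female comparison. The median of the 9 differences, bounds entered as they stand, was -4.73 in males and -4.43 in females, whereas the median over all genes well above background on both arrays was -0.021 and -0.044. For all 9 genes both CB-NP pools lay below both control pools, an order seen in 33.0% of the 14164 genes well above background in both controls, and by at least 2-fold, a gap seen in 0.275% of them. Nothing is read from these shares, since the genes were picked on this contrast. Normexp background correction was run with an offset of 50 units added to every reading, which pulls low readings together. With it the medians were -2.42 and -2.30. The bounds of Prss1 in males (at most -0.98) and of Cela2a (at most -0.79) and Spink1 (at most -0.85) in females no longer reached 2-fold. That leaves their true differences unknown beyond those bounds. In pooled tissue RNA, fewer cells of a type and less RNA per cell cannot be told apart.

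The female and male control pools shared the exposure to water, and here the members did not differ as 1 block. Spink1 was 2.51-fold lower in female control than in male control (log2 difference -1.33, scanner error 0.21), the only 1 of 9 genes with a 2-fold difference, beside 1.08% of 14773 genes at least 2-fold lower with bounds and 0.575% at least 2-fold higher. Among genes well above background on both control arrays 0.522% were at least 2-fold lower. Cela3a (-0.93), Cpa1 (-0.70) and Ctrb1 (-0.66) were also lower in female control, by more than their scanner error of 0.20. Cela3b (0.74) and Prss1 (0.65) were higher there, again by more than their scanner errors of 0.20 and 0.21. Try4 (0.19) and Try5 (-0.17) differed by less than theirs (0.20), and Cela2a (-0.25) by slightly more (0.21). The Cela3a probes disagreed here, since the other one was higher in female control by 0.86 (0.21). The median over the 9 genes was -0.25.

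Between the CB-NP pools only the 4 genes well above background in both could be compared. Ctrb1 was higher in female CB-NP than in male CB-NP by 0.84, and Cpa1 (0.10, scanner error 0.31), Cela3b (-0.19, 0.40) and Cela3a (-0.30, 0.36) differed by less than the scanner error. None of the 4 was at least 2-fold different. Of the 14107 genes well above background on both CB-NP arrays, 0.269% were at least 2-fold lower in female CB-NP. With bounds included, 0.549% of 14746 genes were lower and 0.949% higher. The order of the pools, high to low, was male control, female control, female CB-NP and male CB-NP for Ctrb1, Try5 and Cpa1. It was male control, female control, male CB-NP and female CB-NP for Cela3a, Cela2a and Spink1. Female control came first for Cela3b, Try4 and Prss1. The places of the CB-NP pools have no meaning for the 5 genes below detection there.

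Other pancreatic proteases and inhibitors, a list of 15 genes of which 11 had a probe, shared the direction in part. In males 6 of the 11 were at least 2-fold lower and none was 2-fold higher, and the median of the 8 with a value was -1.77. In females 4 were at least 2-fold lower and the median of 8 was -1.26. Gm5771, a predicted gene 1 coding gene away from Prss1 on chromosome 6, read 2.15 units in male CB-NP and 506 in male control, and 3.63 in female CB-NP and 408 in female control (at most -5.91 and -5.07). Cela1, an elastase gene, did not follow. It read 392 units in male CB-NP and 335 in male control, and 330 in female CB-NP and 614 in female control, or log2 differences of 0.21 and -0.59.

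Other markers of the pancreas were set beside the members. Of the list of lipases, amylase and granule proteins, 8 of 15 genes with a probe were at least 2-fold lower in male CB-NP and 9 of 15 in female CB-NP, with medians of -3.22 and -2.80 over 10 genes each. The amylase gene Amy2a5 was at most -6.96 in males and -6.69 in females, Clps, the colipase that anchors lipase to fat, -5.07 and -3.64, and the lipase-related gene Pnliprp1 at most -5.83 and -5.59. The other Amy2a5 probe gave bounds of at most -3.05 and -2.98. The other Clps probe gave bounds of at most -2.34 in males and -3.37 in females, so the order of the sexes depends on the probe. The adult pancreatic lipase gene Pnlip was not well above background in any pool. The summed level of this list, in units of an array's 75th percentile, was 0.73 in male CB-NP and 12.2 in male control, and 0.75 in female CB-NP and 10.2 in female control. That of the 9 members was 0.32 and 16.8, and 0.362 and 11.9, in the same order. The sums include readings not well above background and add probes that differ in binding. They are therefore compared between pools and not between lists. These lists mark the same acinar cells as the members, and the share of such cells in each pool was not tested.

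Of 8 listed genes that control the acinar state, 5 were well above background in each control pool and 4 in each CB-NP pool. Ptf1a, a DNA-binding subunit of PTF1, was not well above background in any pool. Rbpjl, its acinar-specific partner, read 9.16 units in male CB-NP and 164 in male control, and 10.7 in female CB-NP and 22.6 in female control. It was well above background in the control pools alone, with a log2 difference of at most -4.18 in males and -0.77 in females, and it was 3.09 lower in female control than in male control. Xbp1 and Gata6, which the spleen expresses too, lay between -0.20 and 0.23. Of the 5 regulators with a value in each sex, 1 in males and none in females was at least 2-fold lower. The bound of Rbpjl in females does not exclude it.

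Islet genes were lower along with the members in males and not in females, and duct genes lay near 0 in both sexes. Ins2, an insulin gene, read 40.5 units in male CB-NP and 434 in male control, and 108 in female CB-NP and 98.4 in female control. Its log2 difference was -3.44 in males and 0.44 in females. Ins1 was at most -5.65 in males and 0.75 in females, and Chga, a granule protein of endocrine cells, -1.12 and 0.49. Of 10 islet genes, 6 were at least 2-fold lower in males and none in females, while all 9 protease and inhibitor genes were in both sexes. The summed islet level, again with readings not well above background included, was 0.42 in male CB-NP and 3.42 in male control. It was 1.01 in female CB-NP and 0.70 in female control. The duct markers Krt19 (0.04 and -0.05) and Krt7 (-0.19 and -0.10) lay near 0, and none of the 4 duct genes with a value, of 8 listed, was 2-fold different in either sex.

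Tissues other than the pancreas were checked in the same way. Of the 10 gastric and intestinal genes, 2 or 3 were well above background in each pool. A difference or bound could be given for 4 in males and 3 in females, and none of these values reached 2-fold, but those that are bounds do not exclude it. Of the 5 fat markers, 2 had a value in males and 1 in females. Fabp4, the one measured in both, was 0.09 and 0.35, and Adipoq was not well above background in any pool. Of the 6 liver markers, Alb, Apoa1 and Ttr were not well above background in any pool. Serpina1a, a serpin that inhibits proteases, was higher by 0.67 in males and 1.28 in females. Afp was higher by 0.33 and 0.49. Fgb was well above background in male control alone, with a log2 difference of at most -0.76 in males. Among genes of trypsinogen activation and its brakes, Tmprss15, which encodes enteropeptidase, and F2rl1, a receptor that trypsin cleaves, were not well above background in any pool. Ctsb (-0.04 and 0.16), a lysosomal protease that can cut trypsinogen, and Ctsl (-0.05 and -0.21) lay near 0. Of the 7 genes of this list with a probe, 1 was at least 2-fold lower in males. That was A2m, well above background in male control alone, with a log2 difference of at most -1.71. In females none was 2-fold lower and 1, Serpina1a, was at least 2-fold higher. The spleen markers had list medians of 0.00 in males and 0.10 in females for stroma, with Tlx1 at -0.08 and -0.05, and of 0.16 and 0.33 for blood cells. Cd79a, part of the B cell receptor, was 0.61 and 0.72. Some genes of eosinophils, which were on no list and were picked after their values were seen, were lower in CB-NP pools of both sexes along with the members. They stood among the genes closest to the members in the likeness ranking described below, which looks for this very pattern. No count over a set of eosinophil genes is given. Prg2, which encodes the major basic protein of eosinophil granules, read 411 units in male CB-NP and 4080 in male control, and 1590 in female CB-NP and 10100 in female control (log2 differences -3.33 and -2.36). Epx, the eosinophil peroxidase, was -3.06 and -2.55, Ear6, of the eosinophil-associated ribonuclease family, -3.16 and -2.61, and Prg3 -1.87 and -2.09. The part of eosinophils in the result was not tested.

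**Figure D4:**
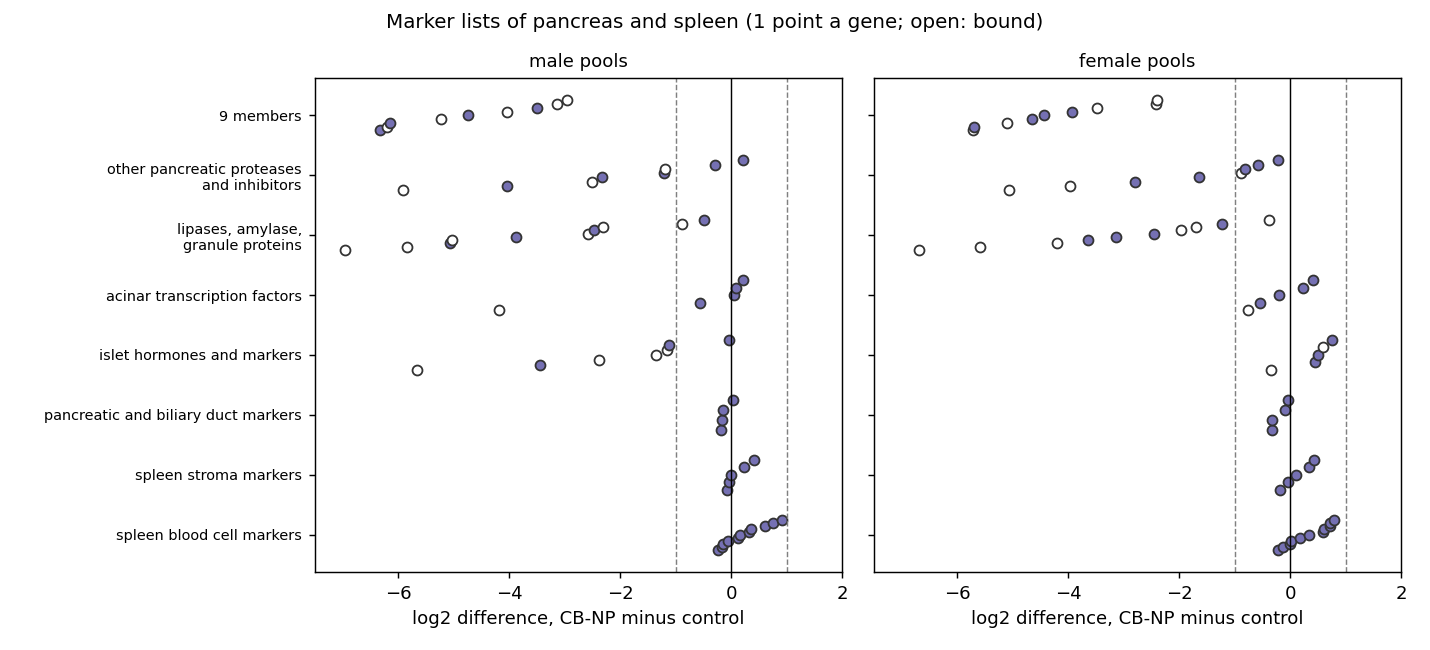
Log2 differences, CB-NP minus control, of the members and the marker lists of pancreas and spleen, in male (left) and female (right) pools. Each point is 1 gene with a value, open where it is a bound. The lists of trypsinogen activation, stomach and intestine, liver and fat are not drawn. Dashed lines mark 2-fold. The 9 members and the lipase list lie left of 0 in both panels, islet genes lie left of 0 in males, and duct and spleen genes lie within 2-fold.

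The genes most like the members over the 4 pools were found by the distance between a gene's 4 log2 levels, less their own mean, and the median profile of the 9 members. Readings below the detection limit were raised to it. Among 14155 other genes well above background in both controls, the closest was Reg1, a secreted acinar protein, at 0.40 log2 units. It read 2.27 units in male CB-NP and 275 in male control, and 2.61 in female CB-NP and 225 in female control. Then came Amy1 (0.65), Clps (0.74), Gm5771 (0.99), Pnliprp1 (1.22), Gm10334 (1.38), Lefty1 (1.42) and Sycn (1.58). The members themselves lay between 0.54 (Cpa1) and 1.93 (Cela2a), and the median distance of all other genes was 4.56. Amy1 is a close copy of the pancreatic amylase genes, which its probe may also read, and Gm10334 lies next to Prss1. Sycn encodes a protein of the zymogen granule. Lefty1, a signalling protein of left-right patterning, was on no pancreatic list. It read 2.29 units in male CB-NP and 72.4 in male control, and 2.66 in female CB-NP and 176 in female control. The likeness rests on 4 pools and on the contrast that picked the members.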

How the data were processed

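Spleen RNA, 1 pool per group, was hybridized to 4 Agilent arrays (design 028005, build mm9) in the Cy3 channel alone. Feature Extraction 10.10.1.1 read them, per the file headers. The deposited processed signal is an intensity on a linear scale, with background subtraction and spatial detrending but no normalization between arrays, per the file headers. Other deposited columns hold the median pixel intensity of spot and local background, the scanner error, and, as other values, flags (0 or 1) for background and outliers. The authors' value table is an intensity with column medians of 76.1, 75.2, 79.4 and 68.9 for male CB-NP, male control, female CB-NP and female control. It equals the processed signal times nearly 1 constant per array (3.18, 3.10, 3.49 and 2.64), so it is linear and uncentred by gene, and the target of the scaling is not given in the sources used here.

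Signals were taken to log2, less the log2 75th percentile of the array's non-control spots. Repeated spots were averaged without outlier spots. Of 55681 probes, 26762 matched 20284 genes by RefSeq accession through a RefSeq name table (GRCm38.p6, used for names and chromosomes). A gene stood for by several probes took the one with the highest mean signal. Each difference compares 2 arrays, with no replicate and no test, and the threshold was 2-fold. The members and lists were chosen with earlier results of these data known. Named were the 9 members, the 3 brightest genes of each list with Tlx1 and Cd79a, and the 8 genes of most similar profile. Other list genes named for being below detection (Ptf1a, Pnlip, Adipoq, Alb, Apoa1, Ttr, Tmprss15 and F2rl1), A2m and the eosinophil genes were picked after their values were seen. Not every gene that met the rule is named. The calculation was checked on simulated data. The software was Python 3.11.15, pandas 2.3.3, numpy 2.4.6 and matplotlib 3.10.9, with R 4.3.3 and limma 3.58.1 for normexp (offset 50) and quantile normalization.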

Additional observations from a re-analysis of the deposited data

Results flagged for a closer look

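With 1 pool per group, the outlying-sample check could not be run. In 4 genes named beside the members, the CB-NP difference had opposite signs in the sexes, and this difference between the sexes was not tested. Ins1 was at most -5.65 on the log2 scale in males and 0.75 in females, a gap between the sexes of at least 6.41. Ins2 was -3.44 in males and 0.44 in females, a gap of 3.88, and Chga was -1.12 and 0.49, a gap of 1.61. Their male control readings stood above the other pools. Ins2 was 2.37 and Ins1 3.37 lower in female control than in male control on the log2 scale. Cela1, a gene related to the elastase members, was 0.21 in males and -0.59 in females (female minus male, -0.79). No member of the protease group had opposite signs.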

How the results depend on the processing

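The count of members at least 2-fold lower stayed at 9 of 9 in both sexes under median centring, a 75th percentile over probes well above background on all arrays, quantile normalization, the authors' value table, the mean of all probes of a gene, and no detection filter. With normexp background correction 8 in males and 7 in females had a value or bound of at least 2-fold, the members' medians were -2.42 and -2.30, and the share of all genes at least 2-fold lower was 0.25% and 0.279%. Without a detection filter that share was 3.3% in males and 2.24% in females, since readings below detection then count as they stand. Of 63 single-gene values under alternatives in each sex, all were below 0, and 62 in males and 61 in females had a value or bound of at least 2-fold lower. Between the control pools, none of the 63 changed sign. Averaging the probes moved Cela3a to -4.51 in males, and to -0.03 between the control pools. Median centring moved the median of all genes by -0.111 in the female comparison and 0.118 between the control pools. No paired analysis was possible because the results come from no test: each difference is already taken within a sex, between 2 pools, and the labels carry no replicate numbers. Signal over background limits the folds of Try4, Try5, Prss1, Cela2a and Spink1 to bounds.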
